A study of Drosophila melanogaster with 2 samples.

Results

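Among the sites precipitated with a Dip2-eGFP fusion protein in whole Drosophila melanogaster embryos, 234 of 910 peaks on the chromosome arms (25.7%, 95% Wilson interval 23.0 to 28.7) lay inside introns. The pooled list of peaks held 973 in all, and the arms used were 2L, 2R, 3L, 3R, 4, X and Y. A peak was taken as intronic when its summit, the position of highest signal, was more than 500 bp from every annotated transcript start, in no annotated exon and within a gene body. The gene whose body held the summit was called its host. Chromatin immunoprecipitation with sequencing (ChIP-seq) recovers DNA fragments bound to a protein, here through an anti-GFP antibody against green fluorescent protein fused to Dip2. The series held 1 group of 2 biological replicates, all embryos of the transgenic strain collected from 0 to 18 hours of development, so the signal is an average over many stages and cell types. The strain label names the inserted transgene's target as Dlip2, a gene for which RefSeq lists Dip2 as a synonym. RefSeq also has a separate gene with the symbol DIP2, and that the tagged protein is the product of Dlip2 is taken from the strain label. The labels do not state the promoter driving the fusion, the number of embryos or whether untagged protein was also present. The lists hold no expression values, so the labelled tissue could not be checked against markers. Of 51331 intronic candidates in the authors' longer ranked list, 0.456% had passed the authors' threshold on the irreproducible discovery rate (IDR), against 0.666% of all 136665 candidates on the arms.

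Introns of fly genes hold many regulatory sequences, including enhancers, insulators and alternative promoters, and first introns of long developmental genes are known for them. Insulators separate regulatory domains, and in flies the zinc-finger protein CTCF binds a subset of them through a GC-rich sequence with a short conserved core. Trl, the GAGA factor, binds GA repeats at promoters, enhancers and insulators. Peak position gives where a tagged protein was recovered with chromatin and does not tell direct binding to DNA from recovery through another protein.

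The strongest intronic peaks carried a shared sequence, shown first because the rest of the description returns to it. The CTCF core, sought here as AGATGGC or AGAGGGC or AGGTGGC or AGGGGGC on either strand, was found no more than 100 bp from the summit in 22 of the 25 intronic peaks of highest signal. Each line below is for 1 of these 22 peaks, all but the 3 on an arm whose sequence is not printed here. It gives 20 bases either side of the core nearest to the summit, oriented so that the core reads 5′ to 3′, with the core in capitals. The sequences are those of the RefSeq assembly of the dm6 build. In 19 of the 22, the core was followed directly by the bases GC.
Hr4, chrX:1953099-1953145, - strand: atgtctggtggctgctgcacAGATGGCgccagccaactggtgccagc
TfAP-2, chr3L:21604428-21604474, - strand: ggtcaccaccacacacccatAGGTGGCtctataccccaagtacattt
lncRNA:iab8, chr3R:16919207-16919253, - strand: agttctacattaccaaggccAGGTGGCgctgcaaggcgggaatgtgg
Eaat2, chr2L:740249-740295, + strand: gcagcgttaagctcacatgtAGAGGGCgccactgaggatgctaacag
Wnt4, chr2L:7258295-7258341, - strand: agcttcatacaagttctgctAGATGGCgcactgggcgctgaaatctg
Svil, chr3L:2409471-2409517, + strand: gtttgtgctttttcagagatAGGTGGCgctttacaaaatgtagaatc
lncRNA:CR44357, chrX:7242105-7242151, + strand: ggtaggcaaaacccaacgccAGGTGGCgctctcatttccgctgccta
CG12017, chr3L:3288569-3288615, - strand: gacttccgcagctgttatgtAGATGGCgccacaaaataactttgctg
lncRNA:CR44886, chrX:3343912-3343958, + strand: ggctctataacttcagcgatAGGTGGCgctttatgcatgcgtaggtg
kirre, chrX:2949274-2949320, - strand: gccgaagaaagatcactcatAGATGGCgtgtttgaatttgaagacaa
CG15431, chr2L:4418204-4418250, - strand: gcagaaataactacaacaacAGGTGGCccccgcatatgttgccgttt
CG43980, chr3L:21652965-21653011, - strand: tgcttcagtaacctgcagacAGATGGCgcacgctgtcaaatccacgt
CG43867, chrX:843498-843544, - strand: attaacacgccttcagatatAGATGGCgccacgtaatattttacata
Eip74EF, chr3L:17597103-17597149, + strand: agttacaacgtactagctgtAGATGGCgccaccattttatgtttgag
Abd-B, chr3R:16934881-16934927, - strand: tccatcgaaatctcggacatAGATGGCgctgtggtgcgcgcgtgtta
CG14459, chr3L:22634303-22634349, - strand: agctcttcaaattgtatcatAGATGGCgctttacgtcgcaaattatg
zormin, chr3L:2122436-2122482, - strand: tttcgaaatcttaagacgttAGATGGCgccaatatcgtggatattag
Jupiter, chr3R:11613265-11613311, - strand: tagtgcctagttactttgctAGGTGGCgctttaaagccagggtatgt
acj6, chrX:15353785-15353831, + strand: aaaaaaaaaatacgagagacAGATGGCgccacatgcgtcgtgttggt

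In these lines the core was mostly followed by GC and then C or T, and preceded by C or T, although only the 7 letters of the core were used to find them. The intronic peaks were also divided by signal into 4 bins of equal size. In the strongest bin, 29 of 37 nearest cores (78.4%, 62.8 to 88.6) were followed by GC. In the other intronic peaks 10 of 24 were (41.7%, 24.5 to 61.2), and in intronic candidates outside the thresholded list 230 of 4480 (5.13%, 4.53 to 5.82). Cores of promoter peaks were followed by GC in 47.4% (37 of 78) and those of intergenic peaks in 67.1% (51 of 76). A C or T stood directly before the core in 36 of 37 cores of the strongest bin, 17 of 24 of the other intronic peaks and 40.7% of cores in candidates. The 4 spellings were also used unequally: AGATGGC made up 56.8% of the nearest cores in the strongest bin and 29.4% of those in candidates, whereas AGGGGGC made up 2.70% and 26.5%. The extended form, a core and the GC after it both wholly inside the window, was found in 38 of 234 intronic peaks (16.2%, 12.1 to 21.5) and in 0.470% of the 51097 intronic candidates outside the list. From the strongest bin to the weakest it was found in 29 of 58, 6 of 59, 3 of 58 and 0 of 59 intronic peaks. In 1 further peak, in sick, the GC lay past the end of the window. The extended form was chosen after the sequences were seen.

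Signal spanned from 2.26 to 4828 over the 234 intronic peaks, in the units that the authors' caller gave it, for which no scaling is stated. The median was 88.4, beside 102 for promoter peaks and 112 for intergenic peaks of the same list, and 16.4 for intronic candidates outside it. A small number of sites stood far above the rest. The 25th intronic peak had a signal of 424, the 50th 182 and the 100th 96.5. The depth of the libraries is unknown, since the lists hold no read counts, and intervals on shares cover the number of peaks only.

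**Figure D1:**
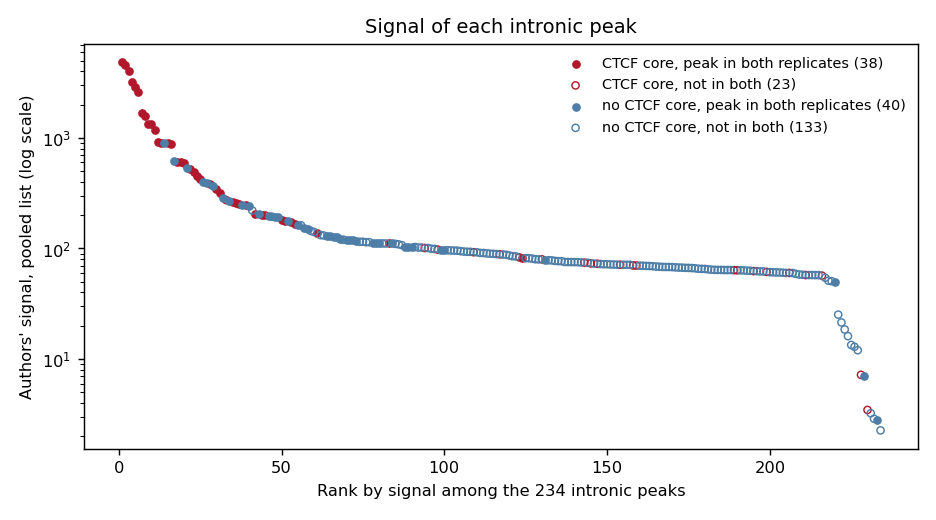
Signal of each of the 234 intronic peaks in the pooled list (log scale) against its rank, coloured by the presence of the CTCF core within 100 bp of the summit and filled where a thresholded peak of each replicate overlaps. The steep left end, above a signal of 424, holds 25 peaks, of which 22 have the core and all 25 were found in both replicates.

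The 3 intronic peaks of highest signal lay in transcriptional regulators, and 2 of these are receptors of the nuclear receptor family. The first was in retn, which encodes an ARID-domain transcription factor, in intron 5 of 7 at chr2R:23652185-23652648. Its signal was 4828 in the pooled list, 2135 in replicate 1's own list and 2722 in replicate 2's, with ranks of 2 and 1. Ranks here and below are among the candidates of those lists on the arms. The next lay in Hr4, a nuclear receptor of the ecdysone response, at chrX:1952906-1953391, with signals of 4552, 2314 and 2247 and ranks of 1 and 5 in the replicates. The peak in EcR, the receptor for the moulting hormone ecdysone, at chr2R:6150972-6151615, had signals of 4053, 1705 and 2336. These 3 peaks were therefore among the 6 highest candidates of each replicate on the arms. Signals from different lists are not on a shared scale, and each is to be read against its own list.

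Below them came TfAP-2, an AP-2 family transcription factor, with a pooled signal of 3227, 1417 in replicate 1 and 1826 in replicate 2, in the first intron. The non-coding RNA gene lncRNA:iab8 of the bithorax complex, the cluster of Hox genes that patterns the abdomen, had signals of 2911, 1136 and 1781. Eaat2, a transporter of excitatory amino acids, had 2622, 1350 and 1293, in an intron of only 342 bp. All 3 ranked among the 31 highest candidates of either replicate. The signalling ligand Wnt4 followed with 1670, 621 and 1052, and Svil, a supervillin-related actin-binding protein, with 1580, 659 and 924. Between 1343 and 878 stood 8 further peaks, in lncRNA:CR44357, CG12017, lncRNA:CR44886, kirre, CG15431, piwi, CG43980 and CG43867. Their ranks in the replicates' lists ran from 59 to 102. Among them, kirre encodes an adhesion protein of muscle fusion and piwi an Argonaute protein of the piRNA pathway. From 617 down to 424 came chas, Eip74EF (an ecdysone-induced ETS factor), tun, Abd-B (the most posterior Hox gene), CG11050, CG14459, zormin, Jupiter and acj6 (a POU homeobox factor). Replicate 1 ranked these between 109 and 167 and replicate 2 between 109 and 159.

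Both replicates held a thresholded peak at all 25 of these sites, and at 21 of the next 25. Of the 234 intronic peaks, 78 (33.3%, 27.6 to 39.6) overlapped a thresholded peak in both replicates, 8 in replicate 1 alone, 81 in replicate 2 alone and 67 in neither. Replicate 1 thus held 86 of them and replicate 2 159, and replicate 2's list was the longer on the arms (734 peaks against 468). The share in both was 43.5% (38.9 to 48.2) for promoter peaks and 49.2% (41.9 to 56.4) for intergenic peaks. It was 57.1% among the 133 intronic peaks of the authors' conservative list, and 73.2% when only the 455 peaks of the pooled list with the highest signal were kept. From the strongest bin to the weakest, 53 of 58, 20 of 59, 2 of 58 and 3 of 59 intronic peaks were in both. The 3 of the weakest bin, in CG43867, HmgZ and Fem-1, each overlapped a stronger intronic peak. The same replicate peaks were thus counted for both entries. The pooled list was made from the same reads as the replicates' lists, so these overlaps are not independent of it.

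Of the 148 intronic peaks without a thresholded peak in replicate 1, 122 overlapped a candidate of its ranked list and 26 did not. Of the 75 without one in replicate 2, 74 overlapped a candidate. The strongest without a replicate 1 peak were in HmgZ, an HMG-box chromatin protein, with a pooled signal of 274, then CG46321 (221), alpha-Catr (199), CG9837 (194) and NFAT (162), the last pair without a candidate in replicate 1. The strongest without a replicate 2 peak were in bmm, a triglyceride lipase (131), CHES-1-like, a forkhead factor (115), Hr4 (114), mub, an RNA-binding protein (107), and MFS17 (101). The bmm and CHES-1-like peaks were without a replicate 1 peak as well, and bmm also without a replicate 1 candidate. None of these 10 was among the 32 intronic peaks of highest signal.

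The CTCF core was found in 61 of 234 intronic windows (26.1%, 20.9 to 32.0) of 100 bp either side of the summit, against 8.77% (8.53 to 9.02) of intronic candidates outside the list. It was less frequent than in intergenic peaks (42.5%, 35.5 to 49.8), and its interval overlapped little with that of promoter peaks (17.8%, 14.5 to 21.6). In the replicates' own lists, the core was in 41.8% of the 98 intronic peaks of replicate 1 and in 24.6% of the 191 of replicate 2, and among the 455 peaks of highest signal it was in 41.2% of the 97 intronic ones. Intronic windows and candidates within the interquartile range of GC content of the intronic peaks (32.8% to 43.3%) held it in 27.4% and 5.94%. The share was highest in the strongest bin, with 63.8% (50.9 to 74.9), and was 10.2%, 15.5% and 15.3% in the others. Together these other bins held the core in 24 of 176 peaks (13.6%, 9.34 to 19.5), also above the 8.77% of candidates. In promoter peaks the share went from 45.9% in the strongest bin (signal from 183) to 9.09% in the second (102 to 172). In intergenic peaks it went from 75% to 55.6%, but their second bin reached from 114 to 719 and so overlapped the strongest bin of intronic peaks, which began at 150.

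**Figure D2:**
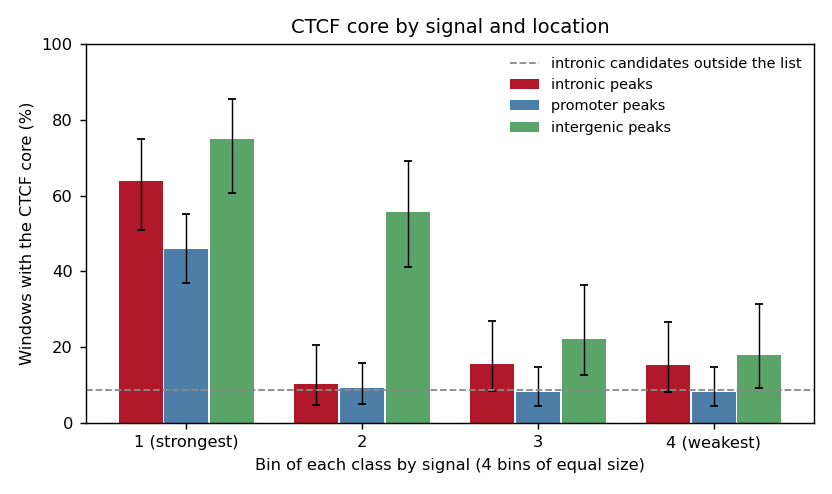
Share of summit windows, 100 bp either side, with the CTCF core in 4 bins of equal size by signal for each class of peak, with 95% Wilson intervals as error bars and the share in intronic candidates outside the list (8.77%) as a dashed line. The core is in 63.8% of intronic windows in the strongest bin and in 10.2% to 15.5% of the others.

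Where present, the core lay closer to the summit than in candidates, most clearly in the strongest bin. It was within 25 bp in 31 of 61 intronic peaks (50.8%), against 26.9% of candidates that held a core, and the median distance was 24.0 bp against 48.5. In the strongest bin 23 of 37 were within 25 bp. In the other bins 2 of 6, 3 of 9 and 3 of 9 were (33.3% each), nearer to the share in candidates. In the CG14459 peak the centre of the core coincided with the summit. Its strand showed little preference relative to the host, with 33 cores opposite to the host's direction of transcription and 28 the same. Intronic peaks with the core had a median signal of 207 and were in both replicates in 38 of 61 cases. Those without it had a median of 78.1 and were in both in 40 of 173. Both kinds were about equally far from a transcript start, at medians of 1811 and 1736 bp. The search word for the factor Brinker, whose letters GGCGC overlap the end of the extended core, was found in 44 intronic peaks, of which 38 also had the core. In 36 of these 38 the matches shared letters.

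The 3 of the 25 strongest intronic peaks without a core within 100 bp were those of piwi, chas and CG11050. Their 101 bases centred on the summit are shown on the reference strand, so that they can be set beside the core sequences above, with no capitals because no searched word is marked.
piwi, chr2L:10986152-10986252, + strand: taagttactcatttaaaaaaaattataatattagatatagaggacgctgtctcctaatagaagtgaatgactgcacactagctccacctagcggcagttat
chas, chrX:17695804-17695904, + strand: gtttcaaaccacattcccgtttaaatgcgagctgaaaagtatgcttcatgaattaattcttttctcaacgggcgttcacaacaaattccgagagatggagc
CG11050, chr2L:6612674-6612774, + strand: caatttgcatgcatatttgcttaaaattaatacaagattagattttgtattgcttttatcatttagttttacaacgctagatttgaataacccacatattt

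The GC content within 100 bp of the summit of these 3 was 36.3%, 35.8% and 32.8%. The piwi peak had a core 181 bp from its summit, outside the window searched, and the chas and CG11050 peaks had none within 250 bp. In the replicates' lists the piwi peak had signals of 300 and 613, the chas peak 197 and 422, and the CG11050 peak 198 and 329, so all 3 were recovered in both. The piwi and chas windows also held GAGAGA.

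Many of the other intronic peaks had an AT-rich summit between GC-richer sides. In the 176 peaks outside the strongest bin, the median GC content was 35.6% in the central 101 bp and 45.0% beside it, and the centre was the lower in 131 (74.4%). In the 173 intronic peaks without a core, the median GC content was 33.7% in the central 101 bp and 46.0% in stretches of the same length centred 200 bp to each side. The centre was the lower of the pair in 138 of 173 (79.8%). Among intronic candidates outside the list it was lower in 43.6%, with medians of 43.6% and 42.6%. In the second bin by signal the centre was lower in 52 of 59 peaks and in the third in 46 of 58. In the weakest it was lower in 33 of 59, nearer to the candidates. Some weakest-bin entries, such as those of Fem-1 and ImpL2, overlapped a stronger peak. Its summit lay 208 and 199 bp away, so that a side was read there. What this adds to the value was not tested. Promoter peaks also had an AT-rich summit, with a centre of 31.7%, sides of 42.6% and a lower centre in 344 of 439. Peaks with a core went the other way, with medians of 45.5% in the centre and 40.1% beside it. The word itself is GC-rich and adds to that difference.

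**Figure D3:**
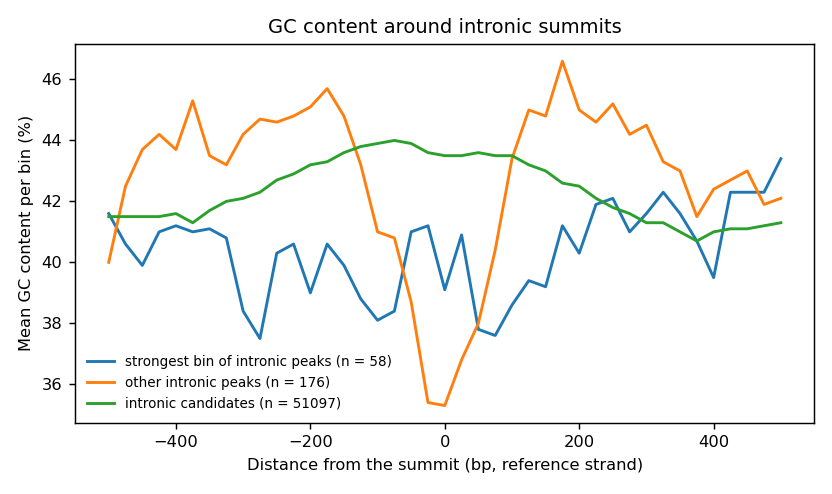
Mean GC content in steps of 25 bp around the summit, on the reference strand, for the strongest bin of intronic peaks (58), the other intronic peaks (176) and intronic candidates outside the list (51097). The other intronic peaks fall to 35.3% at the summit from 45.7% at 175 bp before and 46.6% at 175 bp after it, whereas the candidates stay between 42.6% and 43.6% at those positions.

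The next 3 sequences are from peaks of the second bin that lacked the core and held TATAAA. They had the highest signal among such peaks on arms whose sequence is printed here. The GC content of their sides was not used to choose them. The 101 bases centred on the summit are on the reference strand, and capitals mark TATAAA or its reverse complement.
CG17834, chr2L:8534875-8534975, + strand: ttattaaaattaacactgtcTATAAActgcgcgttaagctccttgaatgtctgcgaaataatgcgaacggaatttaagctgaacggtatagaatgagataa
CG34417, chrX:6549843-6549943, + strand: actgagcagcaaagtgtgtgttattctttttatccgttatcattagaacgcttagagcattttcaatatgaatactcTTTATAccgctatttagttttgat
bmm, chr3L:14785012-14785112, + strand: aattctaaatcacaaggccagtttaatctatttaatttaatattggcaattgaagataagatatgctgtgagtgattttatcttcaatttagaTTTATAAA

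These 3 peaks had signals of 144, 132 and 131. None was in both replicates: those of CG17834 and CG34417 were in replicate 2 alone, and that of bmm in neither. The GC content of the stretches shown was 34.7%, 31.7% and 23.8%. Within 100 bp of the summit it was 28.9%, 38.3% and 26.9%. In CG17834 the stretch shown was thus GC-richer than the bases directly beside it. TATAAA was in 72 of 234 intronic windows (30.8%, 25.2 to 37.0) and in 17.4% of candidates. Within the interquartile range of GC content the shares were 30.6% and 24.0%, a narrower difference. The GATA word went from 35.9% against 26.6% to 36.3% against 31.3% in the same way. The BEAF-32 element went from 23.1% against 18.6% to 23.4% against 20.7%. The Caudal word went from 55.1% against 46.4% to 54.8% against 57.4%, below the candidates. The homeodomain core (14.1% against 12.2%), the Zelda word (0.427% against 1.02%), the 11-letter Su(Hw) core (0.427% against 0.513%) and the nuclear receptor word (2.56% against 4.96%) were not more frequent than in candidates by more than 2 percentage points. A matching word is a description of the sequence and not a binding site.

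GAGAGA, the repeat that the GAGA factor Trl can bind, was in 34 of 234 intronic peaks (14.5%, 10.6 to 19.6). It was in 7.67% (7.45 to 7.91) of intronic candidates, 7.52% (5.40 to 10.4) of promoter peaks and 8.94% (5.58 to 14.0) of intergenic peaks. Within the interquartile range of GC content it was in 12 of 124 intronic peaks (9.68%) and 7.80% of candidates. Over the arms its share ran from 11.1% on X to 20.0% on 2R. The 34 peaks had a median signal of 92.2, close to the 88.4 of all intronic peaks, and 7 of them also had the CTCF core. Trl itself hosted an intronic peak, with a signal of 364 and no core, found in both replicates with signals of 156 and 207.

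Intronic peaks were nearer to transcript starts than intronic candidates were, although the rule had removed the nearest 500 bp from both. The median distance was 1740 bp for peaks and 6017 bp for candidates. Of the peaks, 65 (27.8%) lay from 501 to 1000 bp away, against 7.23% of candidates, and 60 (25.6%) over 5000 bp away, against 55.8%. Per 1000 intronic candidates, 17.3 were peaks in the nearest class, then 9.69 from 1001 to 2000 bp, 3.73 from 2001 to 5000 bp and 2.10 beyond. The share with the CTCF core was about level over these classes, at 24.6%, 25.8%, 27.7% and 26.7%. The nearest start belonged to the host in 159 peaks and to another gene in 75, as for the peak in Wnt4, whose nearest start, 777 bp away, was that of CG31909.

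The first intron held 108 of the 234 peaks (46.2%, 39.9 to 52.6), against 30.4% of candidates. The difference was narrower among summits at like distances from a start: from 501 to 1000 bp the shares were 60.0% of peaks and 50.1% of candidates. They were 54.8% and 45.5% from 1001 to 2000 bp, 48.9% and 37.9% from 2001 to 5000 bp, and 20.0% and 21.2% beyond 5000 bp. In the weakest bin by signal 28.8% of the peaks were in a first intron, against 48.3%, 54.2% and 53.4% in the other bins. The introns with peaks were long, with a median of 11244 bp, but shorter than those with candidates (16377 bp). The counting of introns used the longest transcript that held the summit in an intron, and 64.1% were in the first intron of at least 1 transcript.

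**Figure D4:**
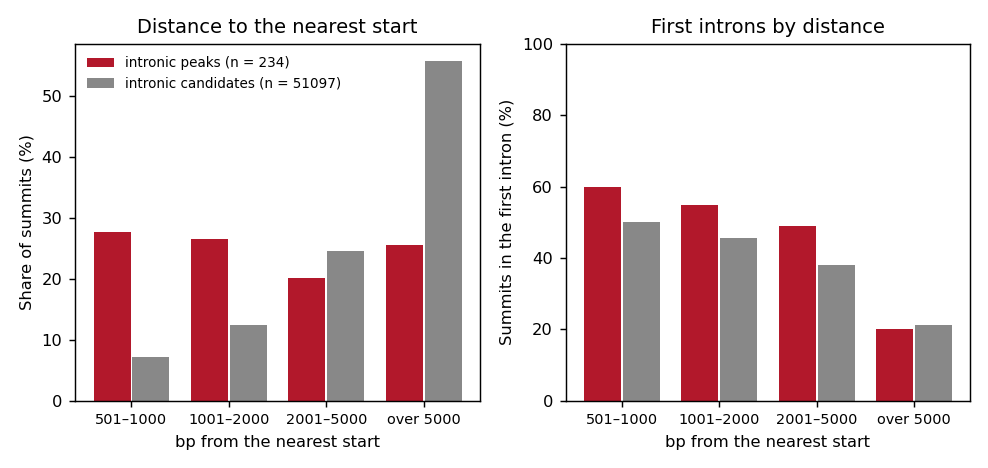
Left, share of summits in each class of distance to the nearest transcript start for intronic peaks (234) and intronic candidates outside the list (51097). Right, share of the summits of each class that lay in the first intron. The nearest class holds 27.8% of peaks and 7.23% of candidates. First introns hold 60.0% and 50.1% of the summits there, and 20.0% and 21.2% beyond 5000 bp.

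The peaks nearest to the limit of 500 bp show what it separated. Just outside it were peaks in aux (508 bp from a start, signal 65.6), Kank (511 bp, 71.2) and CG11200 (527 bp, 57.5). Just inside were summits in introns of ph-p (490 bp, 378), ITP (487 bp, 56.7) and CG14434 (482 bp, 84.5), which were counted as promoter peaks. The lowest scaled IDR score of an intronic peak was 830 and 153 of the 234 were at the maximum of 1000, while 10 intronic candidates outside the list had a score at or above the list's lowest.

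By chromosome arm, X held 63 of the 234 intronic peaks (26.9%, 21.6 to 32.9), 3L 51, 2R 45, 3R 38 and 2L 37, with none on 4 or Y. X held 19.4% of intronic candidates, 18.9% (15.5 to 22.8) of promoter peaks and 13.4% (9.18 to 19.2) of intergenic peaks. Its share was 30.6% in replicate 1's own list and 28.3% in replicate 2's, where it had 17.9% and 18.9% of intronic candidates. Of the 5 arms with peaks, 3R stood lowest against its candidates, with 16.2% of intronic peaks and 27.5% of candidates.

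The 234 peaks lay in 200 host genes, of which 194 encode proteins and 6 are non-coding. These were 4.97% of the 4027 genes with at least 1 intronic candidate. Counted by gene, the hosts were long, with a median of 24161 bp against 7821 bp for the other genes with a candidate. Counted by summit, the median host length was 26635 bp for intronic peaks and 49266 bp for intronic candidates outside the list. Of genes with a single intronic candidate, 1.34% hosted a peak, and of genes with over 50 candidates 17.0% did, so the share of each gene list is to be read beside the length of its genes. Per 1000 intronic candidates the order was the reverse, with 13.4 peaks in genes with a single candidate and 2.25 in genes with over 50. At 15 peaks another gene body also held the summit, and the shorter gene was then taken as the host.

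Transcription factors were among the strongest hosts. Of 13 nuclear receptor genes with an intronic candidate, 2 hosted peaks (15.4%, 4.33 to 42.2), Hr4 and EcR. The genes of that list had a median length of 31127 bp. The CG46321 peak (221) also lay within the longer gene Hr3, a nuclear receptor gene, and was not counted for it. Of 59 homeobox genes with an intronic candidate, 2 hosted peaks, Abd-B and acj6 (424). The Abd-B peaks, of 599 and 320, both held the core and were both in both replicates. The share of homeobox genes (3.39%, 0.935 to 11.5) was below that of all genes, 4.97%, with an interval that includes it. Among 84 other transcription factors 10 were hosts (11.9%, 6.60 to 20.5), at a median length of 20741 bp for the genes of that list, led by retn, TfAP-2 and Eip74EF and then Mad, the transducer of Dpp signals, with 79.7. The 7 peaks of the list after Eip74EF ran from 79.7 down to 12, all below the median of 88.4. The Mad peak was found in replicate 2 alone. The list does not hold every transcription factor. Peaks of CHES-1-like (129 at most), in no list, and of Stat92E (102), listed with signalling genes, were above that median.

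Signalling genes hosted 10 peaks in 8 of 60 genes (13.3%, 6.91 to 24.2), against 4.97% of all 4027 genes, at a median length of 20184 bp against 8221 bp. Per 1000 intronic candidates they had 7.83 peaks, against 4.56 over all genes. Wnt4 led, followed by the kinase Raf with 141, the transcription factor of JAK/STAT signalling Stat92E with 102 and the secreted EGF receptor inhibitor aos with 99.5. Of these, the Wnt4 peak was in both replicates and the others in replicate 2 alone. Axon guidance and adhesion genes had 8 hosts of 100 (8%) and 2.21 peaks per 1000 candidates, led by kirre (928), the cadherin CadN (286), beat-Ib (81.6) and haf (64.7). The genes of that list are the longest, with a median of 38226 bp. Ion channel, receptor and transporter genes had 4 hosts of 91 (4.40%) at a median length of 17413 bp: Eaat2, the potassium channel KCNQ (193), the muscarinic receptor mAChR-A (69.1) and the potassium channel Shab (64.4). RNA-binding proteins had 4 of 30 (13.3%, 5.31 to 29.7), namely brat (130), mub (107), pum (76.8) and mbl (70.1). Their genes had a median length of 37346 bp, and per 1000 intronic candidates they had 2.25 peaks, below the 4.56 of all genes. Cytoskeletal and polarity genes had 2 of 62 (3.23%), at a median of 25498 bp, the dynein heavy chain Dhc64C (111) and the nuclear anchorage protein Msp300 (109). Insulator and architectural genes had 1 of 7 (14.3%, 2.57 to 51.3), Trl, and chromatin regulators of the Polycomb and Trithorax groups 0 of 21, for which the interval reaches 15.5%. In all, 41 of the 200 hosts were in a list. The like share over all 4027 genes with a candidate was not computed, so this count alone shows no excess.

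Most hosts had a single intronic peak, and 25 had more. Hr4 had 4 over 36587 bp, with signals of 4552, 114, 68.1 and 60.6, of which the strongest alone held the core and was in both replicates. The kinase gene Tlk had 3 (195 at most), as did HmgZ (397) and KCNQ (193), and the strongest peak of each was in both replicates. Svil had 2 peaks (1580 and 63.0), CG43867 had 878 and 49.7, chas 617 and 182, Abd-B 599 and 320, CadN 286 and 57.5, and CG9663 192 and 120. In chas and Abd-B both peaks were in both replicates, whereas in Svil and CadN the weaker peak was not.

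Some of the further entries overlapped a stronger one, and whether they are separate sites was not tested. Of the 234 peaks, 29 overlapped another peak of the list, and 22 of these another intronic peak. In CG43867 both entries had the same start and end, with summits 232 bp apart and signals of 878 and 49.7. In HmgZ, the entry of 7.07 overlapped that of 397, with summits 209 bp apart. In all, 11 entries fell under 16.9, the median signal of all candidates of the pooled ranked list on the arms, among them second entries in Fem-1 (2.82) and ImpL2 (2.26), which were chosen as examples after their values were seen. Counting overlapping peaks once left 218 intronic peaks, 27.1% of them with the core.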

How the data were processed

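The data are lists of ChIP-seq peaks from 2 biological replicates of 1 group, with fragments of 200 to 800 bp per the labels. The deposited lists give for each peak the signal value of the authors' peak caller and a scaled IDR score, and the authors' thresholded lists are subsets of their longer ranked lists. Lists came from each replicate and from both together (pooled and conservative). Which aligner and caller were used is not stated in these sources, nor is the scale of the signal, which was compared only within a list.

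Summits were placed with the Ensembl release 115 gene models (transposable elements left out) and read from the RefSeq sequence of dm6. All peaks on the arms lay within its arm lengths. Overlap meant at least 1 bp. A set of 20 motifs was sought on both strands within 100 bp of the summit, and 10 gene lists (738 symbols, 3 of them unmatched and not analysed here) were compared with the hosts. Shares have 95% Wilson intervals. With 1 group no test between conditions was possible, and no p-values were computed. Locations were checked on positions drawn from annotated introns, and motif matches on planted motifs. The choice of host among overlapping genes and the number of the intron were not checked in this way. The peaks named are the 25 of highest signal, the 10 strongest hosts with several peaks, up to 4 hosts per list, the 5 strongest lacking a peak in each replicate and the 3 on either side of 500 bp. Members, lists and motifs were chosen with earlier results of these data known. Python 3.11.15, pandas 2.3.3 and scipy 1.17.1 were used.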

Additional observations from a re-analysis of the deposited data

How the results depend on the processing

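Of 42 alternative values computed, 30 counted as unchanged and 12 as moved. Most were unchanged if they moved by less than the standard deviation between the 2 replicates' values. The share in both replicates was held to its main interval, and the count of hosts in a list to a fixed ratio. The values with 1 replicate left out are the same 2 that set the standard deviation. For the core share it was 12.2 points, so 36.3% in windows of 250 bp counted as unchanged. The intronic share of peaks, 25.7% in the pooled list, was 20.9% to 26% when 1 replicate was left out, 21.8% in the conservative list, 21.3% among the peaks with a signal in the upper part of the list (455 peaks), 31.3% for summits more than 250 bp from a start and 18.6% for those more than 1000 bp away. The share in both replicates, 33.3%, was 57.1% in the conservative list and 73.2% among the 455 strongest peaks. The CTCF core share, 26.1%, was 24.6% to 41.8% with 1 replicate left out and 41.2% among the 455 strongest. The first-intron share, 46.2%, was 45.9% to 57.1% with 1 replicate left out and 64.1% when any transcript could count. The median GC content, 38.3%, was 36.3% to 39.6% with 1 replicate left out and 42.1% in windows of 250 bp either side. The cause of these movements was not tested, apart from the distance limits and the wider windows, which change the set of peaks or bases by construction. With the longest gene body as host the number of hosts in a list stayed at 41. No paired analysis was possible because the series holds 1 group. The depth of the libraries is unknown, so what it limits could not be stated.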
